A study of Sus scrofa with 6 samples.

Results

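The genes examined were 10 components of transforming growth factor-β (TGF-β) signaling: the ligands TGFB1, TGFB2 and TGFB3, the receptors TGFBR1, TGFBR2 and TGFBR3, and the intracellular proteins SMAD2, SMAD3, SMAD4 and SMAD7. They were chosen as the core components of the pathway, with earlier results of these data known, and all 10 were found among the 13288 genes of the deposited expression table. TGFBR3 is also among the genes that the study itself listed for fibrosis on these samples, so its direction is not independent evidence. Ventricular myocardium was sequenced from 6 male Tibetan minipigs, of which 3 had sham surgery (S1 to S3) and 3 had descending aortic constriction (DAC, S4 to S6). In the DAC group, a suture around the descending aorta was tightened until the pressure on the heart side exceeded that beyond it, which loads the left ventricle chronically. The sham group had the chest opened without a constriction, and both groups were sampled 12 weeks after surgery. The sources used here give the body weight but not the age of the animals, and the model is 1 time point in 1 breed and 1 sex.

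TGF-β ligands are secreted in a latent form that is held in the extracellular matrix and released by integrins, proteases and mechanical stretch. The active ligand is bound by the type II receptor, which recruits and phosphorylates the type I receptor, and this kinase in turn phosphorylates SMAD2 and SMAD3. These join SMAD4 and enter the nucleus, where they turn on matrix genes in fibroblasts, and also SMAD7, which brakes the pathway by blocking the type I receptor. In the heart, this route is known for driving fibroblasts to become matrix-producing myofibroblasts under pressure overload. Much of its control lies in ligand release and SMAD phosphorylation, neither of which is measured by RNA.

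All values are FPKM, the fragments of a gene scaled to its transcript length and to the size of the library, so levels of different genes can be compared per length. The sum of FPKM was between 281377 and 308771 per sample. The read depth is unknown, so the error given is the spread between minipigs. The groups were compared on log2(FPKM + 1) with limma's moderated test over the 11029 genes that reached 1 FPKM in 3 or more of the 6 animals. A gene was called at an unadjusted P under 0.05. Because of the added 1, differences of weakly expressed genes come out smaller on this scale than in FPKM. The study, too, used a threshold on unadjusted P. At this threshold 939 genes (8.51%) were called, 3.25% higher and 5.27% lower in the DAC group, that is 358 higher and 581 lower, and 500 higher and 407 lower once the mitochondrially encoded genes were left out. With Benjamini-Hochberg adjustment 0 genes passed an adjusted P of 0.05, and the smallest adjusted P was 0.106. The mitochondrially encoded genes took 24.0% to 25.3% of all FPKM in the sham hearts, 27.2% in S4, 27.1% in S6 and 32.8% in S5.

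All 10 genes were expressed above 1 FPKM in all 6 samples, so no value rested on the filter. TGFB1 and SMAD4 had the highest means over the 6 samples, 28.4 and 28.3 FPKM, which is the 90.2 percentile of the listed genes for both. They were followed by the type II receptor TGFBR2 at 19.0 FPKM, SMAD3 at 14.0 FPKM and the co-receptor TGFBR3 at 8.42 FPKM. TGFB2 at 3.94 FPKM, SMAD7 at 3.82 FPKM, SMAD2 at 3.66 FPKM and TGFB3 at 3.10 FPKM lay close together, and the type I receptor TGFBR1 was lowest at 2.06 FPKM. The order of TGFB1 and SMAD4, of TGFB2 and SMAD7, and of SMAD7 and SMAD2 changed from sample to sample, with each gene the higher one in 3 of the 6. By contrast, TGFBR2 lay above SMAD3, SMAD3 above TGFBR3, and TGFBR3 above TGFB2 in all 6 samples.

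**Figure D1:**
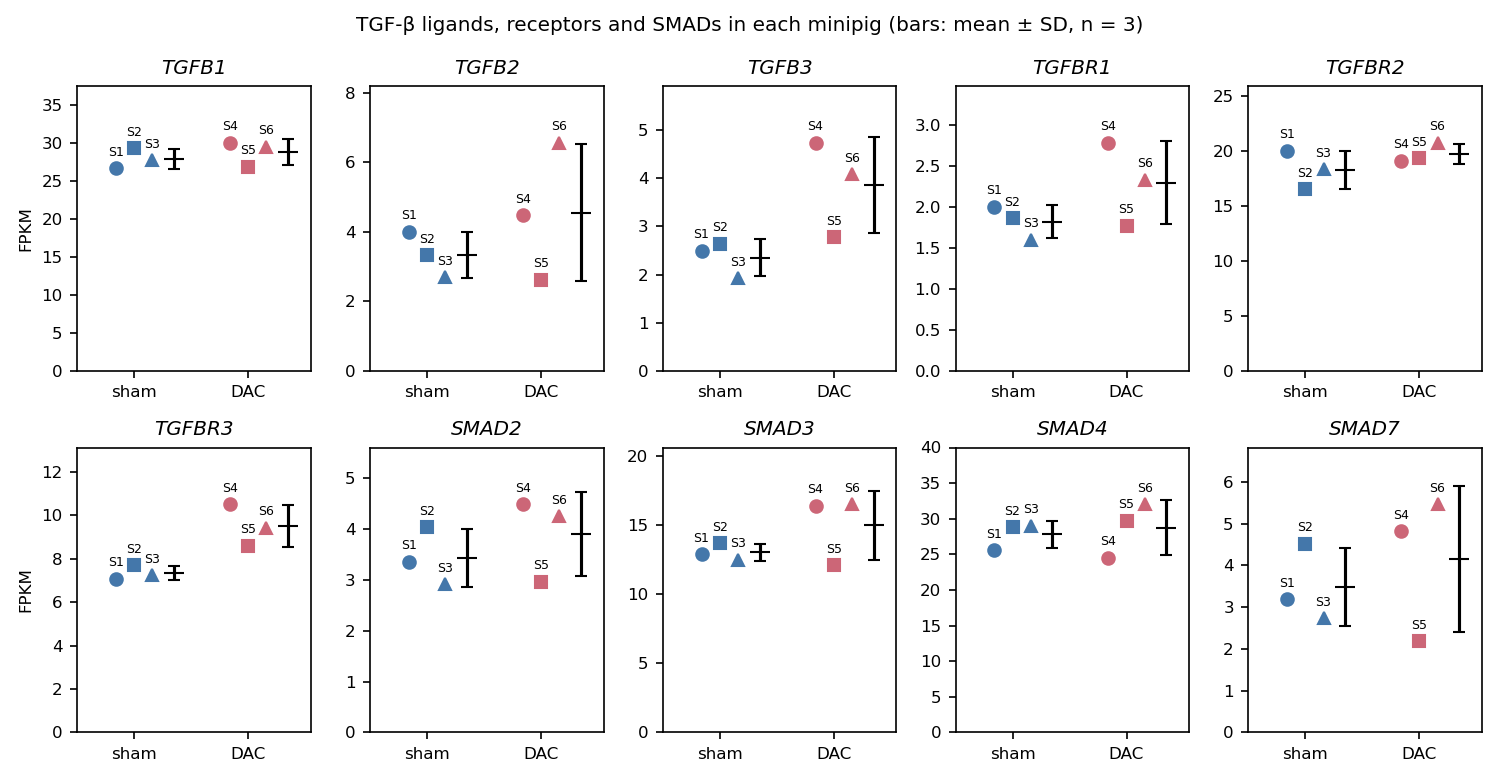
FPKM of the 10 genes in each minipig, with sham animals in blue and DAC animals in red; each panel has its own axis from 0, and the black bar is the mean ± SD of 3 animals. The 3 DAC animals lie above the 3 sham animals for TGFB3 and TGFBR3, and the groups overlap for the other genes.

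In the DAC myocardium, 2 of the 10 genes were called, both higher: TGFB3, a ligand, and TGFBR3, the co-receptor betaglycan that captures ligand and presents it to the type II receptor. None was called lower, and of all genes tested 8.51% were called, 3.25% higher and 5.27% lower. All 10 had the higher mean in DAC animals, which held for 46.6% of all genes tested, and their median log2 difference was 0.17 against -0.016 over all genes tested. That median was 0.078 without S6, 0.12 without S4 and 0.33 without S5. The 10 genes were read in the same 6 libraries and are not 10 separate observations. Of their 45 pairs, 15 had a Pearson's r of log2(FPKM + 1) above 0.8. The sign of each difference held under each scaling, but SMAD4 turned negative without S1 or S6 and SMAD7 without S6. With the variance of each gene on its own 1 of the 10 was called, against 8.06% of all genes, and with a minimum of 5 FPKM 1 of the 5 left, against 9.23%. At an unadjusted P under 0.01, 0 of the 10 were called, against 0.734% of all genes called higher. All DAC samples lay above all sham samples in the same 2 of the 10 genes, against 6.01% of the genes tested. The differences of the other 8 genes have 95% intervals that include 0, and the adjusted P of the 10 genes ran from 0.529 to 0.947 by limma.

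**Figure D2:**
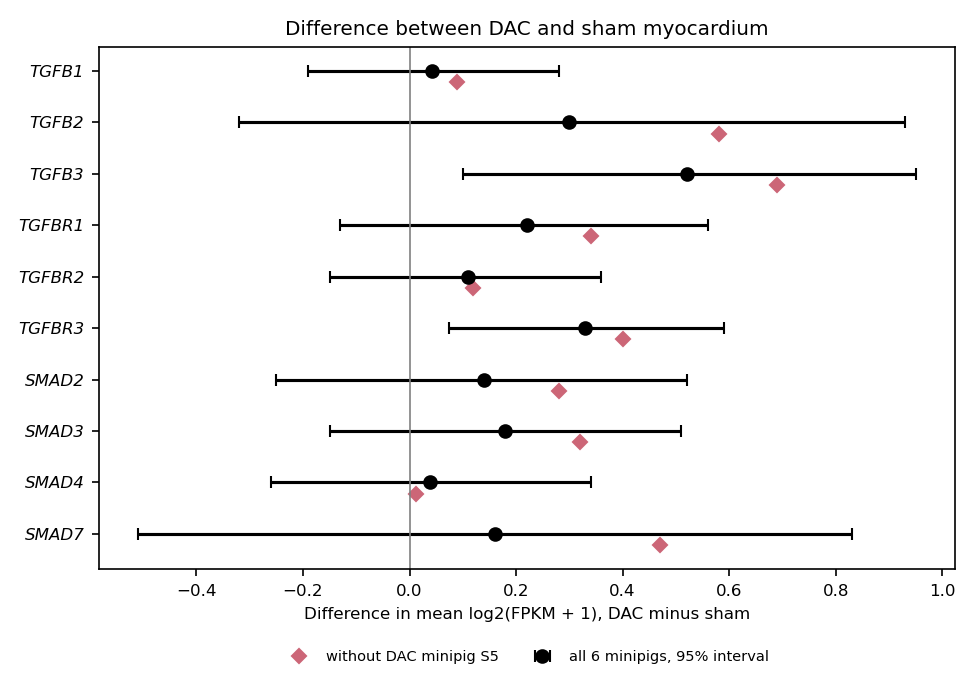
Difference in mean log2(FPKM + 1) between the DAC and sham groups for each gene (black point) with its 95% interval from limma, and the same difference without the DAC animal S5 (red diamond). The intervals of TGFB3 and TGFBR3 lie above 0, and 9 of the 10 diamonds lie to the right of their point, SMAD4 being the exception. S5 was singled out after its values were seen and was the lowest DAC animal for 8 of the 10 genes. For those genes, leaving it out had to raise the difference.

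TGFB1 is the most abundant of the ligand genes in this myocardium and the one usually tied to fibrosis. TGFB1 (ENSSSCG00000003017, susScr11 chromosome 6 from 49332169 to 49349048, minus strand) was at 26.7, 29.3 and 27.7 FPKM in S1, S2 and S3. In the DAC animals S4, S5 and S6, TGFB1 was at 30.0, 26.9 and 29.5 FPKM. The groups overlapped almost fully, with a mean of 27.9 ± 1.29 FPKM in sham and 28.8 ± 1.67 FPKM in DAC animals (SD, n = 3 each). The log2 difference of TGFB1 was 0.043 with a 95% interval from -0.19 to 0.28, so a change of the mRNA of more than 1.21-fold upwards lies outside the interval. TGFB1 was among the most even of the 10 genes between animals of a group, with a coefficient of variation of 4.61% in the sham group and 5.81% in the DAC group. By western blot, the study reported more TGF-β protein and phosphorylated SMAD2 in DAC myocardium, which RNA does not measure.

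TGFB2 needs betaglycan more than the other isoforms do to reach the type II receptor. TGFB2 (ENSSSCG00000010816, chromosome 10 from 8305424 to 8405771, plus strand) was at 4.0, 3.32 and 2.69 FPKM in the sham animals and at 4.48, 2.62 and 6.55 FPKM in S4, S5 and S6. The DAC group thus held both the highest and the lowest value of the 6. The log2 difference was 0.30 with a 95% interval from -0.32 to 0.93 (limma, unadjusted P = 0.288, exact permutation P = 0.50).

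TGFB3 (ENSSSCG00000002385, chromosome 7 from 99133511 to 99162232, minus strand) was at 2.49, 2.64 and 1.92 FPKM in the sham animals and at 4.73, 2.77 and 4.08 FPKM in the DAC animals. S4 and S6 stood clear of the sham group, while S5 lay just above its highest animal. The mean was 2.35 ± 0.383 FPKM in sham and 3.86 ± 1.001 FPKM in DAC animals (SD, n = 3 each), a ratio of 1.64. The log2 difference of TGFB3 was 0.52 (standard error 0.18, 95% interval 0.10 to 0.95), with an unadjusted P = 0.0227 and an adjusted P = 0.548 by limma and an exact two-sided permutation P = 0.10, the smallest that 3 animals against 3 allow. The call was lost without S3 (limma, unadjusted P = 0.0774), without S4 (unadjusted P = 0.0760), without S6 (unadjusted P = 0.0645), and with the variance of TGFB3 estimated from TGFB3 alone (unadjusted P = 0.0639).

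The 5′ end of the TGFB3 span shares 3342 bases with the 5′ end of IFT43, a gene for ciliary transport that is read from the opposite strand. The labels name the kit but do not say whether strand was kept, and without strand reads from the shared stretch cannot be told apart. IFT43 was at 2.68 ± 0.511 FPKM in sham and 2.54 ± 0.547 FPKM in DAC animals (SD, n = 3 each), a log2 difference of -0.061.

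Of the summed FPKM of the 3 ligand genes, TGFB1 made up 80.5%, 83.1% and 85.8% in the sham animals and 76.5%, 83.3% and 73.5% in S4, S5 and S6. The share of TGFB3 was 7.50%, 7.50% and 5.93% in the sham animals and 12.1%, 8.57% and 10.2% in the DAC animals. TGFB1 therefore stayed the main ligand transcript in each heart, and the share of TGFB3 was larger in each DAC heart than in any sham heart. The summed FPKM of the 3 ligands was between 32.3 and 35.2 in the sham group and was 39.2, 32.3 and 40.2 in S4, S5 and S6.

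TGFBR1, the type I kinase that phosphorylates SMAD2 and SMAD3, was the least abundant of the 10 transcripts. TGFBR1 (ENSSSCG00000005382, chromosome 1 from 240859270 to 240918528, plus strand) was at 1.995, 1.862 and 1.601 FPKM in the sham animals and at 2.78, 1.77 and 2.33 FPKM in the DAC animals. S4 and S6 lay above the sham group and S5 lay within it. The log2 difference was 0.22 with a 95% interval from -0.13 to 0.56 (limma, unadjusted P = 0.179, exact permutation P = 0.30).

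TGFBR2, the type II kinase that binds ligand first, was at 19.99, 16.47 and 18.32 FPKM in the sham animals and at 19.1, 19.3 and 20.7 FPKM in the DAC animals. TGFBR2 (ENSSSCG00000011226, chromosome 13 from 16784491 to 16878165, plus strand) had a narrow DAC range that began inside the sham range. The log2 difference was 0.11 with a 95% interval from -0.15 to 0.36. The FPKM of TGFBR2 was 10.02, 8.842 and 11.44 times that of TGFBR1 in S1, S2 and S3 and 6.87, 10.9 and 8.86 times in S4, S5 and S6, with overlapping groups.

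TGFBR3 (ENSSSCG00000006911, chromosome 4 from 125101190 to 125316796, plus strand) was at 7.07, 7.71 and 7.23 FPKM in the sham animals and at 10.5, 8.59 and 9.43 FPKM in the DAC animals. The sham animals lay within a narrow range and each DAC animal lay above it. The mean was 7.33 ± 0.333 FPKM in sham and 9.51 ± 0.966 FPKM in DAC animals (SD, n = 3 each), a ratio of 1.30. The log2 difference of TGFBR3 was 0.33 (standard error 0.11, 95% interval 0.074 to 0.59), with an unadjusted P = 0.0188 and an adjusted P = 0.529 by limma and an exact permutation P = 0.10, again the smallest possible. The call was lost without S1 (limma, unadjusted P = 0.0595), without S3 (unadjusted P = 0.0533) and without S4 (unadjusted P = 0.0541), and it held when the variance of each gene was estimated on its own.

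SMAD2 and SMAD3 are the receptor-activated SMADs of this route, and SMAD3 is the one most tied to collagen transcription. SMAD2 (ENSSSCG00000004505, chromosome 1 from 97415716 to 97511358, minus strand) was at 3.35, 4.03 and 2.91 FPKM in the sham animals and at 4.48, 2.96 and 4.25 FPKM in the DAC animals. SMAD3 (ENSSSCG00000004952, chromosome 1 from 164998083 to 165124454, plus strand) was at 12.9, 13.7 and 12.5 FPKM in the sham animals and at 16.4, 12.1 and 16.5 FPKM in the DAC animals. For both genes S4 and S6 were above all sham animals, whereas S5 was near the lowest sham animal for SMAD2 and below it for SMAD3. The log2 difference was 0.14 for SMAD2, with a 95% interval from -0.25 to 0.52, and 0.18 for SMAD3, with a 95% interval from -0.15 to 0.51. The ratio of SMAD3 to SMAD2 was 3.84 ± 0.437 (SD, n = 3) in the sham group and 3.88 ± 0.218 (SD, n = 3) in the DAC group.

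SMAD4, the common partner shared with bone morphogenetic protein (BMP) signaling, followed another order. SMAD4 (ENSSSCG00000004524, chromosome 1 from 100514791 to 100628029, plus strand) was at 25.6, 28.8 and 29.0 FPKM in the sham animals and at 24.5, 29.7 and 32.0 FPKM in the DAC animals. Here S4 was the lowest of the 6 animals and S6 the highest. The log2 difference was 0.039 with a 95% interval from -0.26 to 0.34, and it was -0.017 without S1 and -0.040 without S6. The span of SMAD4 shares 21203 bases with ELAC1, a gene on the same strand at 1.73 ± 0.0218 FPKM in sham and 2.01 ± 0.243 FPKM in DAC animals (SD, n = 3 each), and the sources used here do not say how shared reads were assigned.

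SMAD7, the inhibitory SMAD that the pathway itself induces, varied most between the animals of the sham group. SMAD7 (ENSSSCG00000004507, chromosome 1 from 98510229 to 98542382, minus strand) was at 3.19, 4.52 and 2.73 FPKM in the sham animals and at 4.82, 2.18 and 5.46 FPKM in the DAC animals. S4 and S6 were above each sham animal and S5 was below each of them. The coefficient of variation was 26.6% in the sham group and 41.8% in the DAC group, and the log2 difference of 0.16 had a 95% interval from -0.51 to 0.83. Without S6 the log2 difference of SMAD7 was -0.038. The genes SMAD2, SMAD7 and SMAD4 lie in this order on chromosome 1, with 999 kb between the first pair and 1972 kb between the second pair.

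The DAC animals did not behave alike. Relative to the sham mean on the log2 scale, the median over the 10 genes was 0.33 in S4, 0.29 in S6 and -0.04 in S5, while it was between -0.09 and 0.07 in the sham animals. S6 was above the sham mean for all 10 genes, S4 for 9 and S5 for 4. S5 was the lowest DAC animal for 8 of the 10 genes, all but TGFBR2 and SMAD4, whereas it was the lowest for 39.8% of all genes tested. In the sham group, S3 was the lowest for 6 of the 10 genes and for 31.1% of all genes tested.

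**Figure D3:**
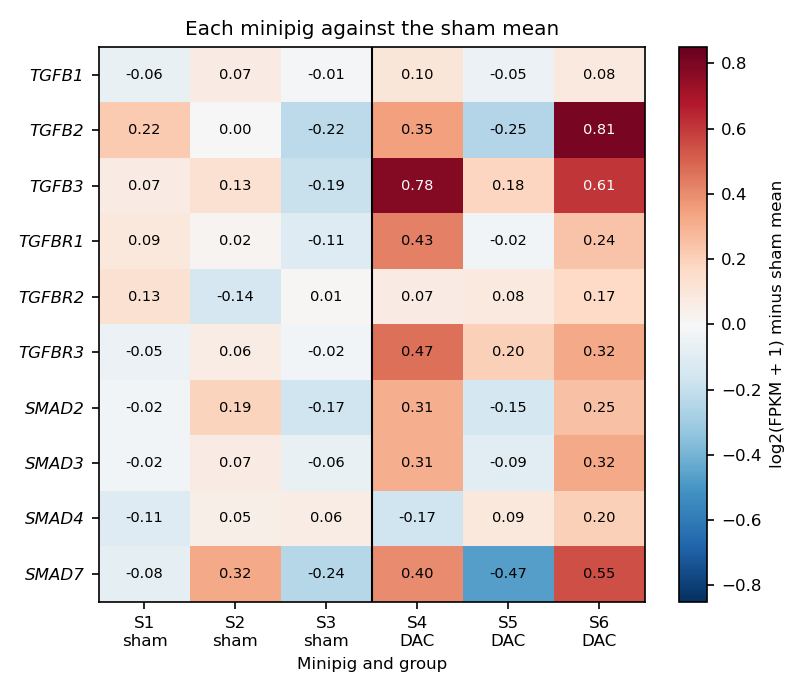
Log2(FPKM + 1) of each gene in each minipig minus the mean of the sham group; red is higher and blue lower, and the numbers are the values. The S4 and S6 columns are mostly red, with 9 and 10 of the 10 genes above the sham mean, and the S5 column has 4 genes above it.

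S5 was singled out after its values were seen, and no label sets it apart. Without S5, 6 of the 10 genes were called, all higher (TGFB2, TGFB3, TGFBR1, TGFBR3, SMAD3 and SMAD7), against 8.66% of all genes tested, of which 4.26% were higher. The log2 difference of TGFB2 was then 0.58 (limma, unadjusted P = 0.0252, adjusted P = 0.565), and that of SMAD7 was 0.47 (unadjusted P = 0.0455, adjusted P = 0.572). TGFB3 had a log2 difference of 0.69 without S5 (unadjusted P = 0.00307, adjusted P = 0.360). Leaving out other animals gave 2 calls without S2 (against 9.33% of all genes tested), 1 without S1 (TGFB3, against 5.44%), 1 without S6 (TGFBR3, against 9.07%), 0 without S3 (against 5.72%) and 0 without S4 (against 7.52%).

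S5 also had the largest share of mitochondrially encoded transcripts, 32.8%, and the largest sum of FPKM, 308771. Whether this bears on its values for the 10 genes was not tested. With the mitochondrially encoded genes removed and each library rescaled, S5 was the lowest DAC animal for 9 of the 10 genes, all but SMAD4. The same held for 38.6% of the genes tested. For TGFBR2, S4 and S5 were then nearly equal, both at 19.7 FPKM. SMAD7 was then at 4.97, 2.23 and 5.43 FPKM in S4, S5 and S6. TGFB3 (log2 difference 0.55) and TGFBR3 (0.37) were again the genes called among the 10, against 8.23% of all genes.

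Ventricular tissue holds several cell types, and in bulk RNA a change in the number of cells of a type cannot be told apart from a change in RNA per cell. The summed FPKM of 10 fibroblast markers was between 432 and 485 in the sham animals and was 549, 508 and 595 in S4, S5 and S6, so that the groups did not overlap (exact permutation P = 0.10, adjusted P = 0.700 over 7 marker lists). Without VIM, which many other cell types express too, the sum was 378, 354 and 411 in the sham animals and 441, 362 and 485 in S4, S5 and S6, so that S5 lay within the sham range (exact permutation P = 0.30, chosen after the values were seen). Each of the 10 markers was left out in turn, and VIM was the only 1 whose removal made the groups overlap. The largest part of the sum was GSN, at 177 ± 16.9 FPKM in sham and 191 ± 33.1 FPKM in DAC animals (SD, n = 3 each). Of the 10 markers LUM and VIM were called higher, the other 8 were not called, and none was at 0. Of those that define cardiac fibroblasts, PDGFRA was at 9.87 ± 1.18 FPKM in sham and 11.8 ± 1.16 FPKM in DAC animals, and TCF21 was at 6.16 ± 0.798 FPKM and 6.16 ± 1.69 FPKM (SD, n = 3 each). The sum of 9 cardiomyocyte markers was between 15636 and 16777 in the sham group and between 15043 and 18087 in the DAC group. Of the 9 markers, 1 was called lower, or 11.1%. MYH7 and MYL2, for the ventricular forms of myosin heavy and light chain, were at 1903 and 4525 FPKM on average in the sham hearts.

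Of 10 endothelial markers, VWF and CLDN5 were called lower and KDR and EMCN higher, 40.0% against 8.51% of all genes tested. The sum of these 10 markers was between 174 and 245 in the sham group and between 151 and 225 in the DAC group. The sum of 10 smooth muscle and pericyte markers was between 205 and 224 in the sham group and between 185 and 234 in the DAC group, with 1 called higher and 1 lower. The sum of 7 leukocyte markers was between 44.0 and 46.6 in the sham group and between 35.7 and 48.8 in the DAC group. CD163 alone was called among the 6 tested, lower, or 16.7%. The 3 red blood cell markers summed to between 5.96 and 39.3 FPKM over the 6 animals, with ALAS2 at 0 in S5, and the 3 adipocyte markers to between 4.73 and 20.7, with 0 called among the 1 tested in each list (limma, unadjusted P). The part of these cell types in the values of TGFB3 and TGFBR3 was not tested.

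**Figure D4:**
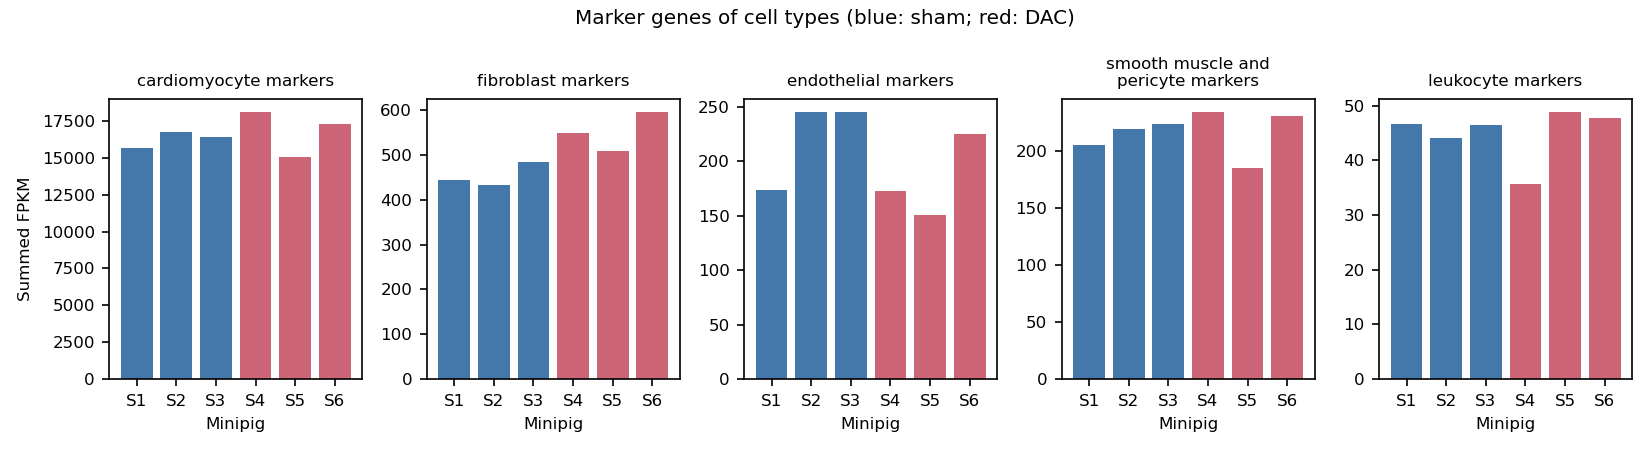
Summed FPKM of the marker genes of 5 cell types in each minipig, sham in blue and DAC in red, each panel with its own axis from 0. The fibroblast sums of the 3 DAC animals, 508 to 595, lie above those of the 3 sham animals, 432 to 485, but not without VIM, and the groups overlap in the other panels.

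The rest of the pathway was examined in 7 lists of genes grouped by role, of which 90 genes were tested. Of these, 12 were called higher and 2 lower in the DAC group, 15.6% against 8.51% of all genes tested, and their median log2 difference was 0.062. The study had itself listed 7 of the 90 for fibrosis on these samples, so their direction is not independent evidence. Of the other 83 genes, 6 were called higher and 2 lower, or 9.64%, close to the share over all genes. POSTN, among these 6, had been named in earlier results of these data.

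**Figure D5:**
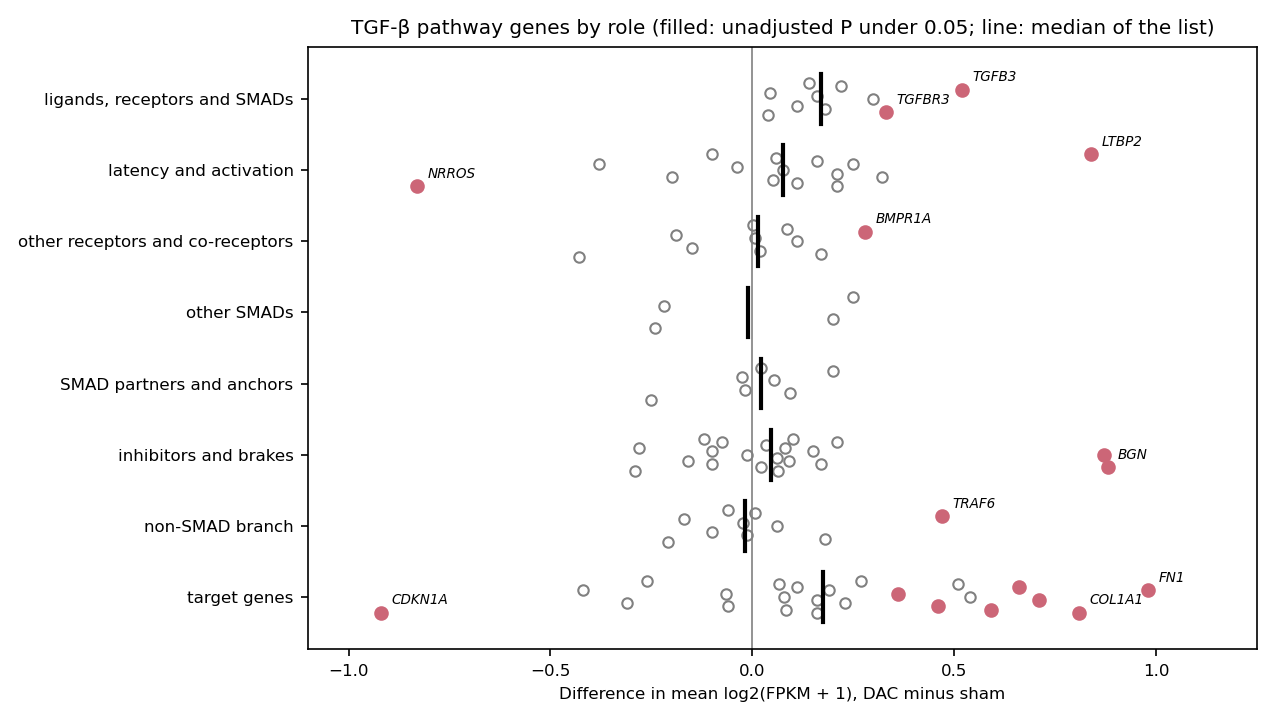
Difference in mean log2(FPKM + 1), DAC minus sham, for each tested gene of the pathway, grouped by role; filled points have an unadjusted P under 0.05 and the black line is the median of the list. The lists centre near 0 except the 10 ligands, receptors and SMADs (median 0.17) and the target genes (median 0.18). For the 18 target genes that the study did not list for fibrosis on these samples, the median is 0.10.

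Among 15 genes listed for latency and activation, most of which store or release latent TGF-β, 1 was called higher and 1 lower. This is 13.3% against 8.51% of all genes tested. LTBP2, a matrix protein that belongs to the latent TGF-β binding family but does not itself hold the latent ligand, was at 1.37, 1.79 and 1.16 FPKM in the sham animals and at 5.90, 1.81 and 3.21 FPKM in the DAC animals. Its log2 difference was 0.84 (standard error 0.31, limma, adjusted P = 0.554), 1.15 without S5 and 0.51 without S4. The call of LTBP2 was lost without S1, S3, S4 or S6 (limma, unadjusted P up to 0.0806). NRROS, which tethers latent TGFB1 on macrophages and microglia, was at 7.22, 6.54 and 6.90 FPKM in the sham animals and at 2.75, 3.05 and 4.68 FPKM in the DAC animals. All DAC animals lay below all sham animals for NRROS, with a log2 difference of -0.83 (standard error 0.17, limma, adjusted P = 0.379), and the call held with any 1 animal left out. Of all genes tested, 8.91% had all DAC samples below all sham samples.

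The most abundant gene of that list was LTBP4, a latent TGF-β binding protein of elastic fibres, at 128 ± 9.50 FPKM in sham and 115 ± 36.8 FPKM in DAC animals (SD, n = 3 each). The integrin subunit ITGAV, which forms receptors that release the ligand, was at 10.8 ± 0.455 FPKM in sham and 12.7 ± 0.813 FPKM in DAC animals (SD, n = 3 each). It did not pass the test (limma, unadjusted P = 0.0720), although its groups did not overlap, with all DAC above all sham as in 6.01% of the genes tested. FURIN, the protease that cuts the ligand precursors, was at 24.3 ± 5.15 FPKM in sham and 18.2 ± 1.81 FPKM in DAC animals (SD, n = 3 each) and did not pass either (limma, unadjusted P = 0.0548). ITGAV is among the genes the study listed, and it and FURIN were picked for mention after their values were seen.

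Of 10 other receptors and co-receptors, BMPR1A alone was called. This type I receptor for BMP ligands was at 4.06 ± 0.262 FPKM in sham and 5.16 ± 0.565 FPKM in DAC animals (SD, n = 3 each), a log2 difference of 0.28 (limma, adjusted P = 0.584). The call was lost without S1, S2, S3 or S4, with P up to 0.119. Endoglin (ENG), the endothelial relative of betaglycan and the most abundant gene of the list, was at 35.5 ± 4.07 FPKM in sham and 31.1 ± 3.53 FPKM in DAC animals (SD, n = 3 each).

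None of the other SMADs was called. SMAD6, the inhibitory SMAD of the BMP branch, lies 263 kb from SMAD3 on chromosome 1 and was the most abundant of the 4 at 12.8 ± 1.37 FPKM in sham and 11.1 ± 3.36 FPKM in DAC animals (SD, n = 3 each). For SMAD1, which carries BMP signals, the groups did not overlap, at 4.88 ± 0.215 FPKM (SD, n = 3) in sham and 5.80 ± 0.821 FPKM (SD, n = 3) in DAC animals. All DAC samples lay above all sham samples for 6.01% of the genes tested. The log2 difference of SMAD1, 0.20, did not pass the test (limma, unadjusted P = 0.131), and SMAD1 was picked for mention after its values were seen. Of 7 SMAD partners and anchors, 0 were called by limma at an unadjusted P under 0.05. The most abundant was the coactivator CREBBP at 24.3 ± 2.02 FPKM in sham and 25.3 ± 1.80 FPKM in DAC animals (SD, n = 3 each).

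Of 20 tested genes listed as inhibitors and brakes, 2 were called, both higher. The list also holds RNF111, USP4, USP11 and USP15, which are known to favour signaling and were not called. Both called genes are small proteoglycans of the matrix that can bind the ligand and also organise collagen. BGN (biglycan) was at 31.5, 25.6 and 29.6 FPKM in the sham animals and at 67.5, 67.2 and 34.0 FPKM in the DAC animals. Its log2 difference was 0.88 (standard error 0.26, limma, adjusted P = 0.508), and the call held with any 1 animal left out. FMOD (fibromodulin) was at 4.46, 2.37 and 3.33 FPKM in the sham animals and at 11.8, 3.86 and 6.86 FPKM in the DAC animals. The groups of FMOD overlapped, and its call was lost without S2, S3, S4 or S6. The most abundant gene of the list, DCN (decorin), was at 150 ± 9.62 FPKM in sham and 156 ± 59.2 FPKM in DAC animals (SD, n = 3 each). Inside the cell, the corepressor SKI and the ubiquitin ligases SMURF1 and SMURF2 were not called, nor were the other genes of the list.

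Of 10 genes of the branch that does not use SMADs, TRAF6 was called. TRAF6, the ubiquitin ligase that links the receptors to the kinase MAP3K7 and also serves innate immune receptors, was at 7.28, 6.90 and 6.89 FPKM in the sham animals and at 8.65, 9.99 and 12 FPKM in the DAC animals. Its log2 difference was 0.47 (standard error 0.13, limma, unadjusted P = 0.00827), and the call held with any 1 animal left out. The most abundant of the list was the GTPase RHOA at 30.9 ± 3.30 FPKM in sham and 32.2 ± 3.00 FPKM in DAC animals (SD, n = 3 each).

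Of 24 tested genes known to be induced or repressed by TGF-β, 7 were called higher and 1 lower, 33.3% against 8.51% of all genes. The 7 are matrix genes or act on matrix: COL1A1, COL1A2, COL3A1 and COL5A2 for fibrillar collagens, FN1 for fibronectin, POSTN for periostin, and TIMP1 for an inhibitor of matrix metalloproteinases. All but POSTN were on the list that the study drew from these samples, and of the remaining 18 target genes 1 was called higher and 1 lower. The 1 called higher was POSTN, which earlier results of these data had also named, so its direction is not independent either. COL1A2 was at 81.3, 68.3 and 70.1 FPKM in the sham animals and at 113, 109 and 109 FPKM in the DAC animals, a log2 difference of 0.59 (standard error 0.11, limma, adjusted P = 0.337). FN1 was at 26.8, 21.5 and 16.2 FPKM in the sham animals and at 33.1, 45.2 and 51.0 FPKM in the DAC animals, a log2 difference of 0.98. For both of these matrix genes S5 lay above each sham animal, whereas for SMAD3 and SMAD7 it lay below each of them.

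Among the other matrix targets, COL1A1 was at 94.0 ± 13.4 FPKM in sham and 165 ± 26.4 FPKM in DAC animals (SD, n = 3 each). COL3A1, the most abundant of the list, was at 173 ± 13.3 FPKM in sham and 238 ± 15.6 FPKM in DAC animals (SD, n = 3 each). COL5A2 was at 16.3 ± 2.66 and 21.0 ± 0.616 FPKM (SD, n = 3 each), and TIMP1 was at 8.37 ± 1.06 and 13.8 ± 2.29 FPKM (SD, n = 3 each) in the sham and DAC groups. The call of COL5A2 was lost without S1, S2, S4 or S6 (limma, unadjusted P up to 0.0875), and those of the other 6 matrix targets held with any 1 animal left out. POSTN had a log2 difference of 0.71. CDKN1A, an inhibitor of the cell cycle that TGF-β induces, was lower, at 21.2, 12.6 and 15.5 FPKM in the sham animals and at 10.9, 6.37 and 7.41 FPKM in the DAC animals, a log2 difference of -0.92 (standard error 0.24, limma, adjusted P = 0.482).

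CCN2 and ACTA2, named here after their values were seen, were not called. CCN2, connective tissue growth factor, was at 7.71, 12.4 and 18.1 FPKM in the sham animals and at 23.0, 7.38 and 31.4 FPKM in S4, S5 and S6. ACTA2, the smooth muscle actin of myofibroblasts, was at 27.2 ± 5.39 FPKM in sham and 31.1 ± 5.52 FPKM in DAC animals (SD, n = 3 each). By RT-qPCR of left ventricle, the study itself reported this actin (α-SMA) as significantly higher in the DAC group. TNC (tenascin C) was under the filter on low values and was not tested, with 0.430, 0.194 and 0.140 FPKM in the sham animals and 1.78, 2.95 and 0.516 FPKM in the DAC animals.

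The genes outside all lists whose pattern over the 6 samples was most like that of TGFB3 were TNIK (Pearson's r = 0.999), FNDC3B (0.993) and EFNA5 (0.984). For TGFBR3 they were CEP170 (Pearson's r = 0.996), ZBTB10 (0.985) and NCOA7 (0.981), and for TGFB1, the most abundant of the 10, CIAO2A (0.985), CBX1 (0.984) and SEPTIN10 (0.981). These are the highest values among all genes tested outside the lists, over 6 shared libraries, and are given as a description. TNIK, a kinase, was at 2.86 FPKM in the sham group and 4.27 FPKM in the DAC group.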

How the data were processed

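RNA from ventricular myocardium of 3 sham and 3 DAC minipigs was made into NEBNext Ultra libraries and read from both ends on an Illumina HiSeq. The authors deposited 1 table of FPKM with 1 column per minipig, in which no gene stays under 0.5 FPKM in all animals. The submitters' processing notes name HISAT2 and susScr11. The quantification program, the annotation and the handling of shared reads are not given in the sources used here. Columns were matched to animals by the labels S1 to S6, and no 2 columns held identical values throughout.

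Sham and DAC values of log2(FPKM + 1) were compared with limma 3.58.1 in R 4.3.3 (lmFit and eBayes with trend, two-sided) over 11029 genes, with Benjamini-Hochberg adjustment over all of them. Exact permutation tests used the 20 assignments of 3 animals to a group. Intervals are 95% intervals of limma. Plots were drawn with matplotlib 3.10.9 in Python 3.11.15. The steps were tested on simulated data.

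The 10 genes, the pathway lists (latency and activation, other receptors and co-receptors, other SMADs, SMAD partners and anchors, inhibitors and brakes, non-SMAD branch, target genes) and the marker lists were chosen with earlier results of these data known. ACVR1C, FOXH1, FKBP1A, CDKN2B, COMP and IL11 of the pathway lists were not analysed here, and BAMBI and TNC were under the filter. The values of 1 target gene are not reported here. The rule for named genes took the 10 genes, each called pathway gene, the most abundant gene of each list, and the 3 genes most correlated with each called member and with the most abundant member; others are named as chosen later. Positions of all 10 genes overlap those of RefSeq on Sscrofa11.1, and no sequences were used here. Besides the neighbours of TGFB3 and SMAD4, RefSeq places 3 other genes over the span of TGFBR3, AAGAB over that of SMAD3 and 1 over that of TGFB1. How reads shared with them were assigned is not given. Nothing in the labels says that the animals were paired. Alternatives tried were a minimum of 5 FPKM, no filter, a pseudocount of 0.1, median scaling, quantile normalization, leaving out the 13 mitochondrially encoded genes, the variance of each gene on its own, sample weights, each animal left out in turn, and calls at P under 0.01.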

Additional observations from a re-analysis of the deposited data

How the results depend on the processing

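No paired analysis was made, because the study assigned the animals to the groups at random and nothing in the labels pairs them. The number of the 10 genes called higher was 2 in all 6 animals. It was 1 with a minimum of 5 FPKM, which left 5 of the genes to test, 1 with the variance of each gene on its own, and 0 at P under 0.01. With 1 animal left out it ran from 0 to 6, the highest without S5. The number called lower was 0 throughout. The number of pathway genes called higher, 12 in all animals, was 7 at P under 0.01 and from 9 to 18 with 1 animal left out, and the number called lower was then 2 to 4, with 4 without S2. With the variance of TGFB3 from TGFB3 alone, the gene was not called. Its log2 difference was the same 0.52, and only the error estimate behind the test changed. With 1 animal left out, the log2 difference ran from 0.39 to 0.69 for TGFB3, 0.26 to 0.40 for TGFBR3, 0.051 to 0.58 for TGFB2, 0.11 to 0.34 for TGFBR1, 0.11 to 0.32 for SMAD3, -0.040 to 0.14 for SMAD4 and -0.038 to 0.47 for SMAD7. Of 135 values of the 10 genes under all alternatives, 121 kept their direction and side of the threshold, 7 lost the call, 4 gained it and 3 turned negative. The median over all genes stayed between -0.037 and 0.020 on the log2 scale in each fit. The log2 ratio of the summed fibroblast markers, 0.28, was 0.17 without VIM, an alternative chosen after seeing the data. The depth of the libraries is unknown, so the error rests on 3 animals a group.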

Other observations

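Without the DAC animal S5, which was singled out after its values were seen, 18 of the 90 pathway genes tested were called higher and 2 lower, against 12 and 2 in all 6 animals, and 4.26% of all genes tested were called higher. Of the target genes, CCN2 (connective tissue growth factor) then had a log2 difference of 1.09 (limma, adjusted P = 0.531), against 0.51 with all animals. BHLHE40, a transcription factor of the clock and hypoxia responses, had 0.89 against 0.54, COL5A1, a chain of collagen V, had 0.49 against 0.27, and ID3, an inhibitor of differentiation that BMP signals induce, had 0.48 against 0.16. LTBP3, which stores latent TGF-β, had a log2 difference of 0.52 without S5 against 0.25 with it, and PMEPA1, a feedback inhibitor of the pathway, had 0.33 against 0.034. LTBP2 had 1.15 against 0.84. COL1A1 (0.78 against 0.81) and COL1A2 (0.60 against 0.59) differed little with or without this animal. Other differences were smaller without S5: BGN (0.72 against 0.88), TIMP1 (0.54 against 0.66), FN1 (0.93 against 0.98) and POSTN (0.67 against 0.71). Among genes lower in DAC animals, this was so for CDKN1A (-0.77 against -0.92) and NRROS (-0.77 against -0.83). Over all genes, the smallest adjusted P without S5 was 0.174 by limma.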
